A study of Mus musculus with 29 samples.

Results

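The 39 genes described here encode the proteasome subunits and subunit-like chaperones whose symbols begin with Psma, Psmb, Psmc or Psmd followed by a number. They were picked by symbol alone from the 30025 genes of the deposited expression table. They comprise 8 Psma genes for the outer rings of the core particle, 11 Psmb genes for its inner rings, 6 Psmc genes for the ATPase ring of the regulatory particle and 14 Psmd genes. Psmc2 is the member that lies inside the deleted 5A3 interval.

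Hematopoietic cells were sorted from the bone marrow of C57BL/6J mice that lack the 5A3 interval on 1 copy of chromosome 5 in the germ line (5A3+/del) and from wild-type (WT) littermates. The mice were between 12.42 and 13.85 weeks of age. Within cells that expressed c-kit and Sca-1 and lacked lineage markers, CD41 and CD48, the level of CD150 separated CD150hi HSC, CD150lo HSC and CD150neg multipotent progenitors (MPP). RNA from 5 mice per genotype and population was amplified and sequenced, except for 4 5A3+/del mice in CD150neg MPP, which makes 29 libraries. The deletion was made with Cre recombinase in embryonic stem cells and is carried by every cell of the 5A3+/del mice, so the loss is not limited to the blood. The WT mice carry none of the engineered alleles as far as the labels say.

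The proteasome degrades proteins that carry ubiquitin chains. Its barrel-shaped core holds the proteolytic sites on inner beta rings behind gates formed by alpha subunits, and the regulatory particle at either end recognizes the substrate, removes ubiquitin and unfolds the protein with a ring of ATPases. All of the Psmc ATPases are needed to build that ring. Subunits are made in matched amounts in many cell types, and Nfe2l1 is known to raise their transcription as a group when proteasome activity is low. HSC are known to make protein slowly and to depend on protein quality control. The inducible beta subunits Psmb8, Psmb9 and Psmb10 are known targets of interferon signaling.

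Psmc2 (ENSMUSG00000028932) spans positions 21291101 to 21309605 on the plus strand of chromosome 5 (mm9), with 5031 bases of exon sequence. Its neighbor Dnajc2, which encodes a ribosome-associated chaperone, ends at 21291069 and is transcribed from the opposite strand, so that the genes start head to head. Both are removed from the same chromosome by the deletion. The stretch between them is shown because it is all that separates their transcription starts in the GENCODE annotation. Capitals mark the 31 bases that belong to neither gene, and the lower case letters before them are bases of Dnajc2 at its start, which spell CCAAT on the plus strand. The sequence is that of the plus strand at chr5:21291065-21291100.
Psmc2 and Dnajc2 start region: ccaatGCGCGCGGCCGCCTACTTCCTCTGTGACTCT

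The other members lie elsewhere, and the 37 genes that could be matched to the mm9 annotation sit on 16 chromosomes. Promoter windows from 250 bases before to 50 bases after the start were available from RefSeq (GRCm38.p6) for 32 members. They were searched on both strands for TGACNNNGC, a core of the antioxidant response element to which Nfe2l1 binds. The letters were found in 5 of the 32 members (15.6%) and in 14.0% of 27025 genes with a window. These 5 stretches are shown as the places where that factor's known motif occurs, with the match in capitals and each read 5′ to 3′ on the strand of the match. They lie at chr14:54618024-54618052 (Psmb5), chr11:70525338-70525366 (Psmb6), chr14:45329587-45329615 (Psmc6), chr5:123228149-123228177 (Psmd9) and chr11:107479278-107479299 (Psmd12), and those of Psmc6 and Psmd12 were on the strand opposite to the gene.
Psmb5: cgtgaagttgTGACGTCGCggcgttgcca
Psmb6: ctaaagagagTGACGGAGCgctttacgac
Psmc6: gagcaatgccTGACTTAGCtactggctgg
Psmd9: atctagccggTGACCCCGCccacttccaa
Psmd12: ggggcaaatgTGACACAGCaga

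The CCAAT letters were found in 13 of the 32 members and in 41.1% of all genes, and CCGGAAGT, which ETS factors bind, in 6 of the 32 (Psma6, Psmc1, Psmc2, Psmd6, Psmd12 and Psmd13) and in 4.3% of all genes. CCAAT has fewer letters and is therefore met more often in any window.

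The libraries held between 21229490 and 38797569 fragments, with a median of 26967107. Kit was between 111 and 203 FPKM and Ly6a, which encodes Sca-1, between 93 and 239 FPKM in all libraries. Mean Ly6a was 118, 142 and 147 FPKM in WT CD150hi HSC, CD150lo HSC and CD150neg MPP. In 5A3+/del mice it was higher, at 171, 190 and 198 FPKM, and this difference was not tested. Mean Slamf1, which encodes CD150, was 14.4 FPKM in WT and 16.1 FPKM in 5A3+/del CD150hi HSC against 0.146 and 0.0698 FPKM in CD150neg MPP. The T cell marker list summed to at most 4.92 FPKM and the B cell list to at most 10.5 FPKM. The macrophage, erythroid, megakaryocyte and natural killer lists reached up to 25.8, 27.3, 52.1 and 54.3 FPKM. Cd48 reached up to 10.5 FPKM and Itga2b, which encodes CD41, up to 8.53 FPKM, although the gate excluded both proteins. Mean Cd48 was 6.37 FPKM in WT and 6.69 FPKM in 5A3+/del CD150neg MPP. The granulocyte and monocyte list, of which all 8 genes were measured, was far higher and varied more, from 187 to 1580 FPKM, with both extremes in WT CD150lo HSC. One WT mouse, replicate 3, expressed Xist and almost no Y-linked genes, unlike the others. The CD150hi HSC library of 5A3+/del mouse 1 stood apart for several members. It had 17346 genes above 0 FPKM, the fewest of all libraries, and WT CD150hi HSC mouse 2 had 17504. Values without the library of mouse 1 are given beside Psmc2, the other ATPase genes, the differences of the inducible beta subunits, Psmd10, the median of the members and the assembly chaperones.

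All members but Psmb11 were expressed at a level that allowed a test, namely 1 FPKM or more in 4 or more libraries. Psmb11 encodes the catalytic subunit of the thymus form of the proteasome, and its mean was between 0.0141 and 0.0366 FPKM in the 6 groups. Values below are FPKM after log transformation and quantile normalization, transformed back. They are given per exon length, so comparisons between genes rest on the annotated exon lengths. The 38 remaining members differed widely in level. In the 15 WT libraries, Psma6, an alpha subunit, had the highest mean at 73.8, followed by the beta subunits Psmb2 at 68.6 and Psmb4 at 61.7. The lowest were Psmd9, a chaperone of base assembly, at 3.57 and Psma8 at 3.09. Psma8 encodes an alpha subunit known from the testis that resembles Psma7, and how shared reads were assigned between them is not given in the sources used here.

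**Figure D1:**
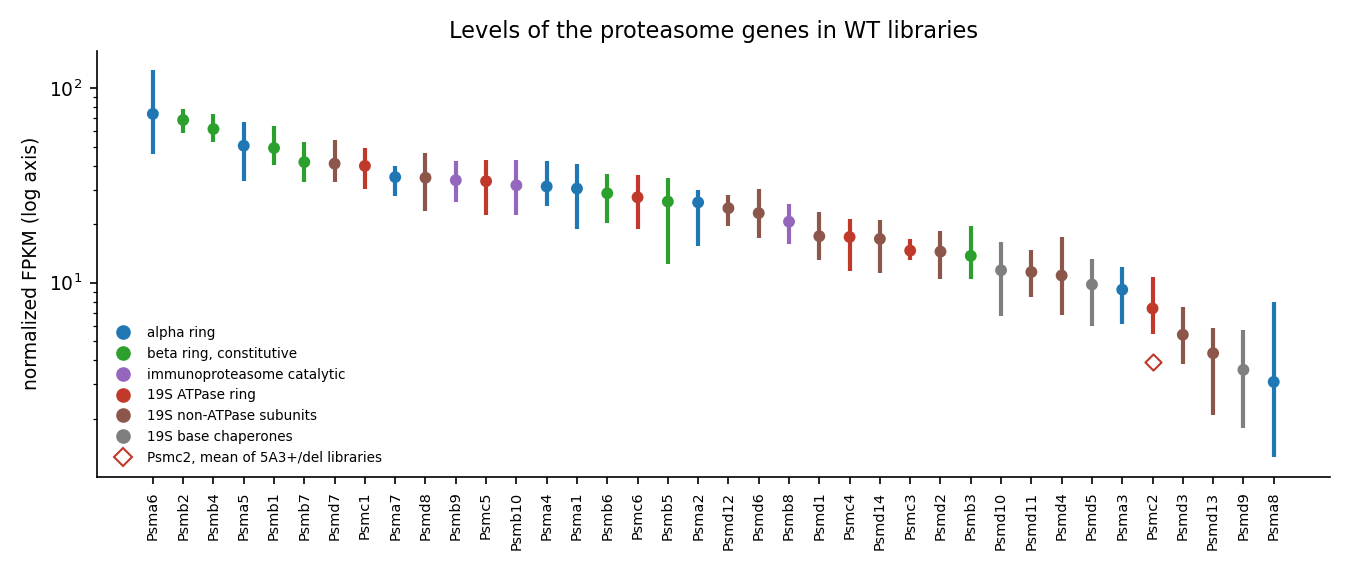
Normalized FPKM (log axis) of the 38 tested members over the 15 WT libraries, with points for means, lines from the lowest to the highest library, and colors for roles (19S denotes the regulatory particle); the open diamond is the mean of Psmc2 over the 14 5A3+/del libraries. By FPKM, Psmc2 was the lowest of the ATPase genes, and Psma8 had the widest relative range.

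Grouped by role, the median level in WT was 41.7 for the 7 constitutive beta subunits, 31.7 for the 3 inducible beta subunits, 30.9 for the 8 alpha subunits, 22.3 for the 6 ATPases, 16.8 for the 11 non-ATPase subunits of the regulatory particle and 9.79 for the 3 base chaperones. Variation between WT libraries was modest. The coefficient of variation had a median of 16.5% over the members, from 7.47% in Psmc3 to 56.2% in Psma8, beside 23.1% over 9962 genes in the same range of levels.

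Psmc2 encodes one ATPase of the ring and was measured by 237 to 1700 fragments per library. In CD150hi HSC its level was 6.40, 10.7, 6.87, 7.42 and 7.37 in WT mice 1 to 5 and 3.14, 1.90, 4.14, 4.01 and 5.17 in 5A3+/del mice 1 to 5. In CD150lo HSC it was 8.49, 5.88, 6.98, 8.28 and 7.21 in WT and 3.20, 3.82, 2.87, 4.36 and 4.06 in 5A3+/del. Every 5A3+/del library of these populations lay below every WT library. In CD150neg MPP the level was 8.23, 6.47, 5.48, 6.48 and 8.42 in WT and 4.78, 3.34, 5.52 and 4.33 in 5A3+/del mice 1 to 4. Here the groups overlapped, because 5A3+/del mouse 3 was just above WT mouse 3. In bulk libraries such as these, less RNA per cell and fewer cells that express a gene cannot be told apart.

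The 5A3+/del mean of Psmc2 was 47.4% of the WT mean for CD150hi HSC, 49.7% for CD150lo HSC and 64.0% for CD150neg MPP. On the log2(FPKM + 1) scale, which understates changes of low genes, the difference was -0.93 (SE 0.17) in CD150hi HSC and passed the test over all genes (limma, adjusted p = 0.0187). In CD150lo HSC it was -0.84 (SE 0.17) and narrowly missed it (limma, adjusted p = 0.0507), and in CD150neg MPP it was -0.55 (SE 0.18, limma, adjusted p = 0.9998, unadjusted p = 0.00554). Exact two-sided permutation over mice for this single gene gave p = 0.00794 in CD150hi HSC and in CD150lo HSC, which is the smallest p these designs allow, and p = 0.0238 in CD150neg MPP. With Benjamini-Hochberg adjustment over these 3 exact tests the values were 0.0119, 0.0119 and 0.0238. Without the CD150hi HSC library of 5A3+/del mouse 1 the difference in CD150hi HSC was -0.89 and no longer passed (limma, adjusted p = 0.0587). Leaving out WT mouse 2, WT mouse 4, 5A3+/del mouse 1 or 5A3+/del mouse 2 in all populations also ended that call, at adjusted p-values by limma of 0.0831, 0.0541, 0.065 and 0.0617.

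**Figure D2:**
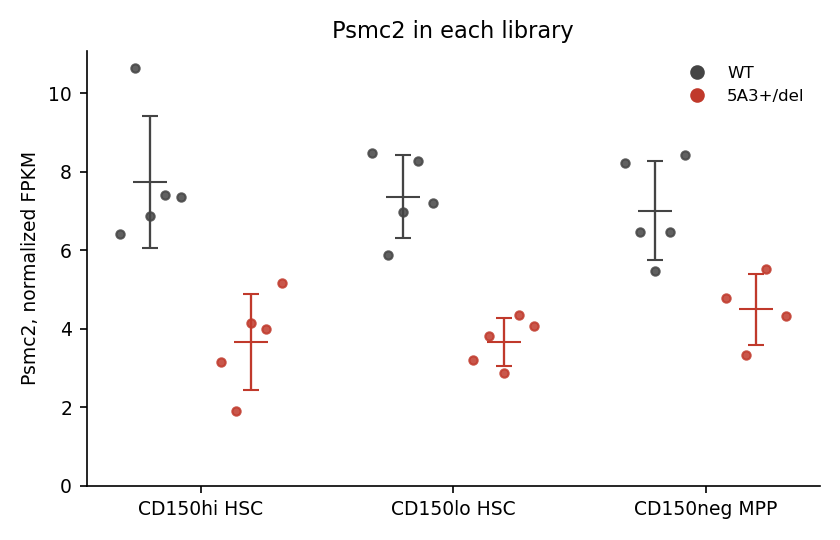
Normalized FPKM of Psmc2 in each library, by population and genotype; points are mice, and horizontal marks with bars are the mean ± SD of 5 libraries (4 in 5A3+/del CD150neg MPP). The genotypes do not overlap in CD150hi HSC and CD150lo HSC and touch in CD150neg MPP.

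The smaller difference in CD150neg MPP was not distinguished from that in the other populations. The genotype difference in CD150hi HSC minus that in CD150neg MPP was -0.38 on the log2 scale, with a 95% interval from -0.89 to 0.13, and in CD150lo HSC minus CD150neg MPP it was -0.30, with an interval from -0.81 to 0.21. Dnajc2, which starts next to Psmc2 on the opposite strand, had log2 differences of -0.89, -0.78 and -1.11 in the same order of populations, from CD150hi HSC to CD150neg MPP. In CD150neg MPP the other genes of the interval that the authors call expressed in HSC differed by between -1.21 (Napepld) and -0.92 (Pmpcb). Psmc2, at -0.55, lay outside that range. Their ranges were -0.95 to -0.53 in CD150hi HSC and -1.17 to -0.70 in CD150lo HSC, and Psmc2 lay within both. Within WT mice, Psmc2 itself did not differ between populations beyond the spread, with means of 7.74 ± 1.68, 7.37 ± 1.06 and 7.01 ± 1.26 (SD, n = 5 each) and 95% intervals for the log2 differences between -0.30 and 0.47.

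Among 5A3+/del mice, mouse 2 had the lowest Psmc2 in CD150hi HSC and in CD150neg MPP, and mouse 3 had the lowest in CD150lo HSC and the highest in CD150neg MPP. WT mouse 2 had the highest level in CD150hi HSC and the lowest of its group in CD150lo HSC.

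None of the other ATPase genes passed the test in any population. Psmc1, Psmc3, Psmc4, Psmc5 and Psmc6 encode the remaining positions of the ring. In CD150hi HSC, Psmc1 was 38.1, 46.0, 49.4, 40.9 and 44.1 in WT and 45.6, 35.4, 37.7, 44.4 and 45.4 in 5A3+/del mice, with full overlap. Psmc3 was 15.3, 15.7, 13.2, 13.9 and 15.7 in WT and 8.17, 11.4, 13.3, 12.9 and 13.8 in 5A3+/del mice, where the low value belongs to the library that stood apart. Its difference was -0.30 (95% interval -0.61 to 0.01; limma, adjusted p = 0.391) and -0.18 without that library. Psmc1, Psmc4, Psmc5 and Psmc6 differed by -0.07, -0.17, -0.05 and 0.10 in CD150hi HSC. Without the same library these values were -0.10, -0.25, 0.19 and 0.01, so that the sign of Psmc5 and the order of Psmc3 and Psmc4 turned. In the other populations the 5 genes differed by between -0.15 and 0.08.

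By FPKM, Psmc2 was the lowest ATPase gene in 29 of 29 libraries, WT mice included. This rank rests on the annotated exon length, 5031 bases for Psmc2 and 1394 to 2607 for the other 5. In fragments it did not hold in every library, since WT CD150hi HSC mouse 2 had 1679 for Psmc2 and 1288 for Psmc3. The median over all libraries was 772 fragments for Psmc2 and 992 for Psmc3, the next lowest. Relative to the geometric mean FPKM of the other 5 ATPase genes of the same library, Psmc2 amounted to 32.3% ± 6.87 in WT CD150hi HSC, 30.9% ± 4.39 in WT CD150lo HSC and 27.8% ± 6.30 in WT CD150neg MPP (SD, n = 5 each). In 5A3+/del mice it amounted to 16.2% ± 4.22, 15.7% ± 2.22 (SD, n = 5 each) and 19.3% ± 5.17 (SD, n = 4). The lowest library was 5A3+/del mouse 2 in CD150hi HSC at 9.66%, and the ranges of the genotypes overlapped in CD150neg MPP alone, where the lowest WT library was at 20.5% and the highest 5A3+/del library at 25.4%.

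**Figure D3:**
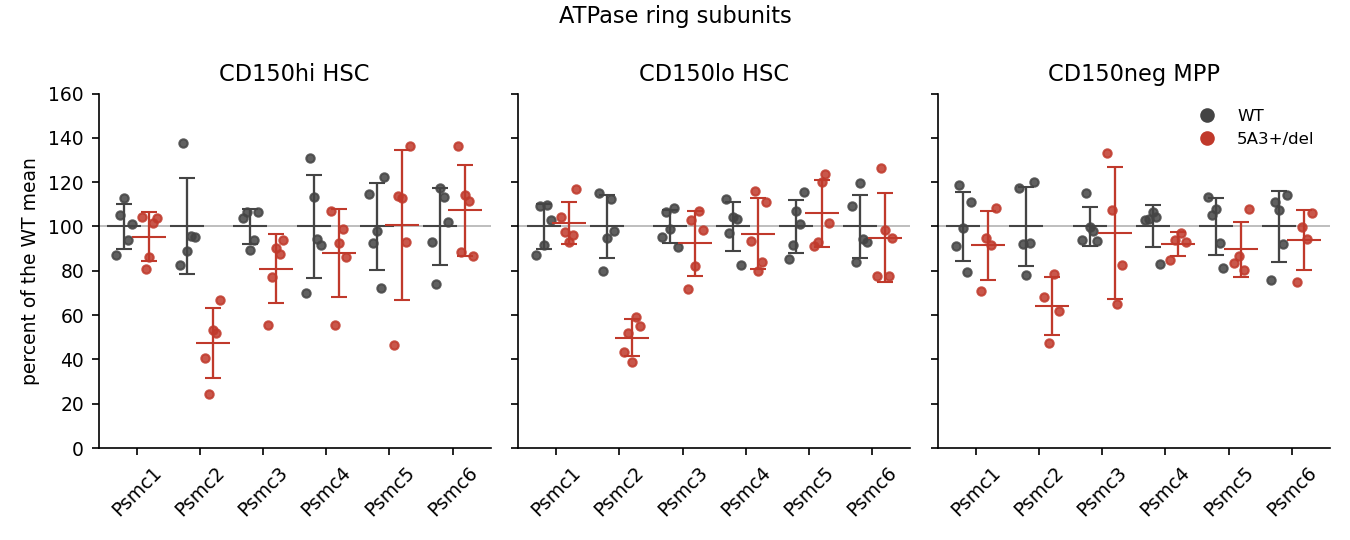
Level of the 6 ATPase genes in each library as percent of the WT mean of the same population, with WT in gray and 5A3+/del in red; points are libraries, and horizontal marks with bars are the mean ± SD. Psmc2 is the gene whose 5A3+/del mean lies far below the line at the WT mean.

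Across all members, 1 of 38 passed the test for a genotype difference in CD150hi HSC, where 0.156% of the 15409 genes tested did, and that member was Psmc2. The count was 0 of 38 in CD150lo HSC (0.0324% of all genes) and 0 of 38 in CD150neg MPP (0.0454% of all genes) with limma. At an unadjusted p under 0.05, 5, 3 and 2 of the 38 members differed in the 3 populations, against 13.1%, 6.87% and 4.27% of all genes. Those with a higher level in 5A3+/del mice were 2, 1 and 1. The members' share at this looser threshold was thus near that of all genes. Groups did not overlap for Psmb9 and Psmc2 in CD150hi HSC, for Psmc2 in CD150lo HSC and for Psmb1 in CD150neg MPP, beside 2.58%, 1.63% and 1.51% of all genes.

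The median difference of the 38 members was -0.08 on the log2 scale for CD150hi HSC, -0.06 for CD150lo HSC and -0.04 for CD150neg MPP, beside 0.00, 0.01 and -0.00 over all genes. In the order given, 26, 25 and 26 of the 38 had a negative difference. These shifts were small beside the error of a single gene, since the 95% interval of a member's difference reached 0.32 to either side at the median in both HSC populations and 0.34 in CD150neg MPP. The median moved toward 0 in all populations without 5A3+/del mouse 1. It was then -0.01, -0.01 and -0.00, and 20, 19 and 19 of the 38 differences were negative. Without the CD150hi HSC library of this mouse alone, the median for CD150hi HSC was likewise -0.01. That library had the lowest level of its group for 19 of the 38 members and the highest for 10, and the CD150neg MPP library of the same mouse had the lowest for 21 and the highest for 6.

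Expressed as percent of the WT mean, Psmc2 ranked lowest of the 38 in each population. The other 37 had a median of 95.4% for CD150hi HSC, 96.8% for CD150lo HSC and 97.0% for CD150neg MPP. Between 80% and 125% of WT lay 33 of the 37 in CD150hi HSC and 37 of 37 in the other populations. Outside that band in CD150hi HSC were Psma8 at 203%, Psmb9 at 137%, Psmb3 at 79.5% and Psmb10 at 74.8%. Summed over the 37 genes, the normalized level of CD150hi HSC was 1005 ± 59.5 for WT and 962 ± 57.0 for 5A3+/del mice (SD, n = 5 each). It was 1007 ± 24.0 and 980 ± 43.1 for CD150lo HSC (SD, n = 5 each), and 974 ± 30.6 (SD, n = 5) and 950 ± 88.2 (SD, n = 4) for CD150neg MPP. The summed levels overlapped between genotypes in every population.

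**Figure D4:**
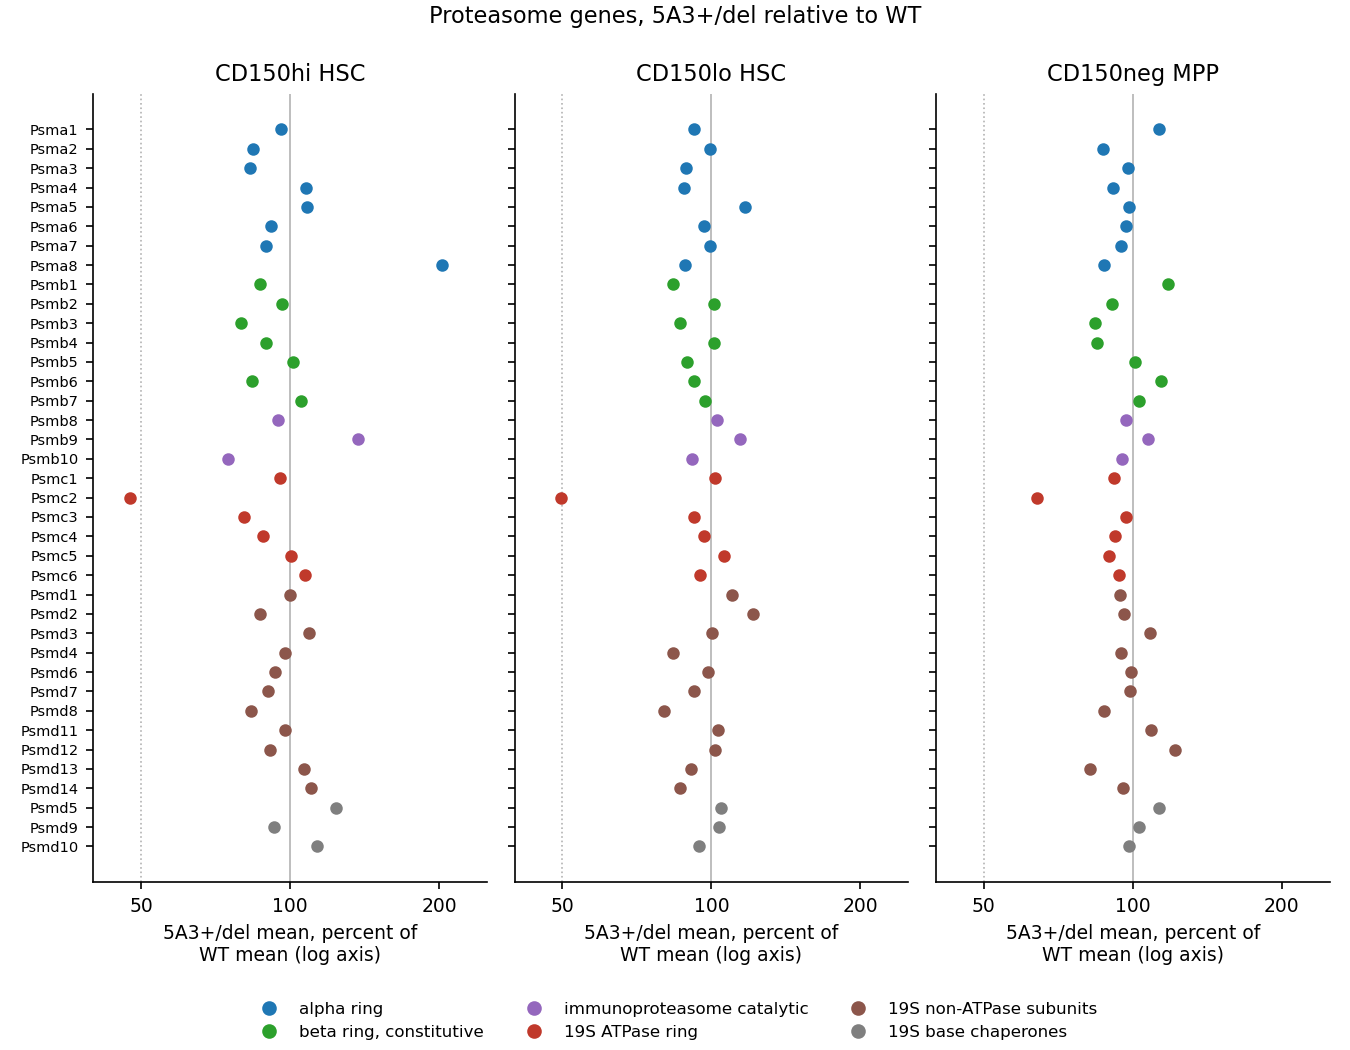
Mean of the 5A3+/del libraries as percent of the WT mean (log axis) for the 38 tested members in each population, ordered and colored by role (19S denotes the regulatory particle); the solid line marks 100% and the dotted line 50%. Psmc2 lies at 47.4%, 49.7% and 64.0%, and the other members scatter around 100%, except Psma8 in CD150hi HSC.

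In the alpha ring, no member passed the test in any population, and the median differences were -0.10, -0.09 and -0.04 on the log2 scale in CD150hi HSC, CD150lo HSC and CD150neg MPP. Psma8 had the largest positive difference of all members. In CD150hi HSC its level was 2.62, 2.70, 1.66, 2.62 and 4.23 in WT and 6.30, 4.37, 5.08, 8.06 and 4.21 in 5A3+/del mice. The groups just overlapped, at WT mouse 5 and 5A3+/del mouse 5, and the log2 difference of 0.81 (SE 0.28) did not pass (limma, adjusted p = 0.202). In CD150lo HSC and CD150neg MPP the differences were -0.13 and 0.02. In WT CD150neg MPP, mouse 1 was at 7.99 and the others between 1.26 and 2.12. Psma8 was measured by 56 to 397 fragments per library.

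The constitutive beta subunits had median differences of -0.16, -0.11 and 0.01, and none passed. Psmb1, a structural beta subunit, was 42.0, 44.9, 45.1, 46.0 and 40.2 in WT CD150neg MPP and 49.3, 46.6, 55.3 and 54.3 in 5A3+/del CD150neg MPP. All 5A3+/del libraries were above all WT libraries there, whereas in CD150lo HSC the 5A3+/del mean of 42.2 was below the WT mean of 50.3, with overlap. The test of the change in genotype difference between CD150lo HSC and CD150neg MPP gave -0.47 (SE 0.16, limma, unadjusted p = 0.00834, adjusted p = 0.784), so it did not hold after adjustment. Psmb5, the constitutive subunit with chymotrypsin-like activity, differed by 0.09, -0.18 and 0.01.

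The inducible beta subunits take the places of constitutive ones in the immunoproteasome, Psmb8 that of Psmb5, Psmb9 that of Psmb6 and Psmb10 that of Psmb7. Transcripts of all 3 were abundant in WT mice of every population. In CD150hi HSC, Psmb9 was 26.0, 33.9, 29.4, 30.4 and 32.9 in WT and 49.97, 47.1, 40.4, 34.7 and 37.2 in 5A3+/del mice. Every 5A3+/del library was above every WT library, and the log2 difference of 0.44 (SE 0.12) missed the threshold after adjustment (limma, adjusted p = 0.0997). Without the CD150hi HSC library of 5A3+/del mouse 1, which held the highest value, it was 0.37 (limma, adjusted p = 0.207). With all libraries the Psmb9 difference was 0.19 in CD150lo HSC and 0.09 in CD150neg MPP. Psmb10 went the other way in CD150hi HSC, at 32.6, 31.0, 36.8, 28.0 and 38.1 in WT and 18.5, 22.9, 29.1, 29.4 and 24.6 in 5A3+/del mice, with overlap (log2 difference -0.42, SE 0.16; limma, adjusted p = 0.251). The lowest Psmb10 value came from the same library of mouse 1, and the difference without it was -0.32 (limma, adjusted p = 0.419). Psmb8 differed by -0.07, and by -0.01 without that library. The 3 inducible genes thus did not share a direction in CD150hi HSC.

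As a ratio within each library, Psmb9 to Psmb6 in CD150hi HSC was 1.12 ± 0.36 for WT and 1.76 ± 0.45 for 5A3+/del mice (SD, n = 5 each), 1.21 ± 0.13 and 1.49 ± 0.14 in CD150lo HSC (SD, n = 5 each), and 1.27 ± 0.23 (SD, n = 5) and 1.20 ± 0.29 (SD, n = 4) in CD150neg MPP. Psmb10 to Psmb7 in CD150hi HSC was 0.80 ± 0.13 for WT and 0.57 ± 0.15 for 5A3+/del mice, and Psmb8 to Psmb5 was 0.94 ± 0.35 and 0.79 ± 0.14 (SD, n = 5 each). The ranges of the genotypes overlapped for each of these ratios. In 5A3+/del CD150hi HSC, the highest ratio of Psmb9 to Psmb6 (2.45) and the lowest of Psmb10 to Psmb7 (0.412) came from mouse 1. That library is the one that stood apart, and ratios without it were not computed. Summed FPKM of the granulocyte and monocyte marker list, whose cells also express inducible subunits, was between 266 and 1040 in WT and between 202 and 309 in 5A3+/del CD150hi HSC, and its part in these values was not tested. The genes of that list did not share a direction there. Mpo, Elane, S100a8, S100a9 and Ngp had lower means in 5A3+/del mice, as in S100a8 with 169 FPKM in WT and 17.8 FPKM in 5A3+/del. Lyz2 (179 and 194 FPKM), Csf1r and Itgam had higher means.

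**Figure D5:**
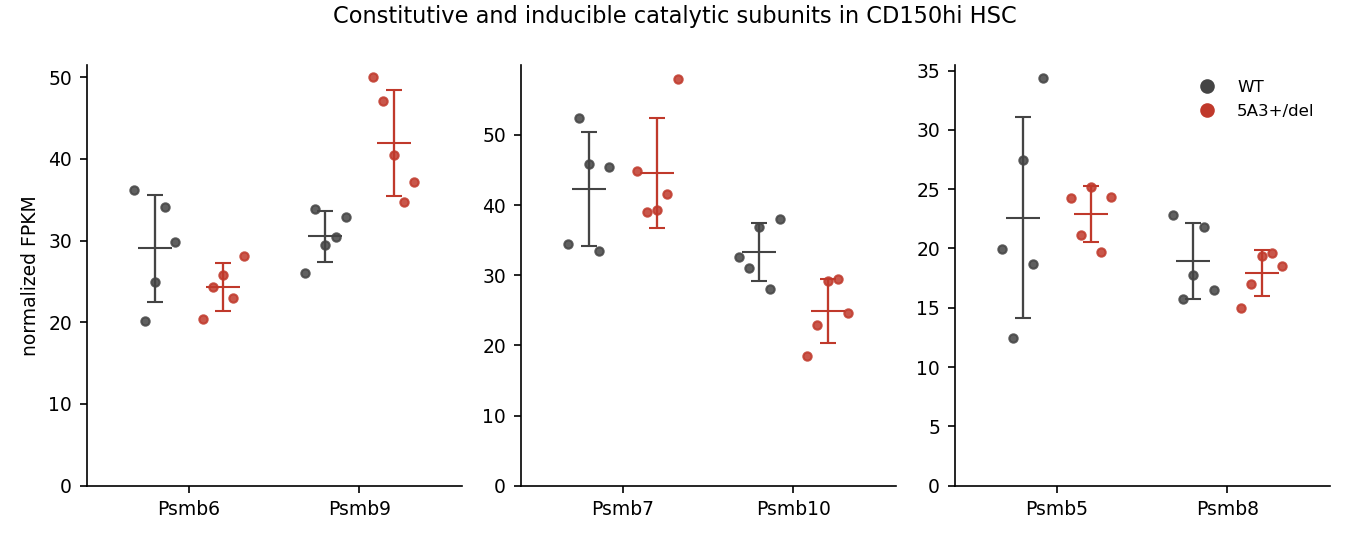
Normalized FPKM of the constitutive catalytic subunits Psmb6, Psmb7 and Psmb5 and of the inducible subunits that replace them, Psmb9, Psmb10 and Psmb8, in CD150hi HSC; points are libraries, and horizontal marks with bars are the mean ± SD of 5 libraries. Psmb9 is higher in each 5A3+/del library than in any WT library, and Psmb10 overlaps between the genotypes.

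Among the 11 non-ATPase subunits of the regulatory particle, which form its lid and the ubiquitin-binding part of its base, the median difference was -0.03, -0.01 and -0.04 and none passed. Psmd2, a base scaffold that receives substrates, differed by 0.27 in CD150lo HSC (limma, adjusted p = 0.703), and Psmd12, a lid subunit, by 0.27 in CD150neg MPP (limma, adjusted p = 0.9998). In CD150neg MPP, Psmd12 was 19.7, 23.1, 22.9, 25.8 and 24.4 in WT and 24.5, 33.1, 29.4 and 25.7 in 5A3+/del mice, so that the groups overlapped. The base chaperones Psmd5, Psmd9 and Psmd10, which guide assembly of the ATPase ring and are not part of the finished particle, differed by a median of -0.11, 0.05 and 0.05.

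Psmd10, known as gankyrin, showed how a single library can stand out. In CD150hi HSC it was 8.31, 10.8, 7.74, 10.2 and 13.6 in WT and 0.776, 7.50, 15.0, 14.1 and 20.04 in 5A3+/del mice. The value of 5A3+/del mouse 1 came from 11 fragments, while the same mouse had 12.5 for CD150lo HSC and 7.73 for CD150neg MPP. The gene is X-linked, and the WT mouse with Xist expression had 7.74, 15.7 and 14.7 in the 3 populations, within the range of the other WT mice in CD150neg MPP but at the lower end in CD150hi HSC and at the upper end in CD150lo HSC. The difference between genotypes was -0.21 on the log2 scale, with a 95% interval from -1.04 to 0.63, and turned to 0.40 without the library of mouse 1 (limma, adjusted p = 0.542). With all libraries the 5A3+/del mean was 113% of the WT mean, so the direction depended on the scale as well.

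The 5 members whose promoter windows held TGACNNNGC, namely Psmb5, Psmb6, Psmc6, Psmd9 and Psmd12, had differences between -0.22 and 0.10 for CD150hi HSC, between -0.18 and 0.05 for CD150lo HSC and between -0.09 and 0.27 in CD150neg MPP. None of them passed the test in any population. Psma6, Psmc1, Psmd6, Psmd12 and Psmd13, which share the ETS letters with Psmc2, were likewise not called.

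No member passed the test between populations in the fit without a mouse block. Comparing CD150hi HSC with CD150neg MPP, 0 of 38 members passed in WT mice, where 10.0% of all genes did, and 0 of 38 in 5A3+/del mice, where 6.16% of all genes did. The counts were also 0 of 38 for CD150lo HSC against CD150neg MPP (0.188% of all genes in WT and 0.0389% in 5A3+/del) and for CD150hi HSC against CD150lo HSC (3.53% and 3.18%). With limma at an unadjusted p under 0.05, 1, 0 and 1 members differed in WT and 3, 1 and 3 in 5A3+/del mice in the same order of comparisons, against 21.8%, 8.75% and 14.1% and 16.9%, 4.95% and 13.3% of all genes. The median difference of the 38 members between CD150hi HSC and CD150neg MPP was 0.04 in WT and -0.00 in 5A3+/del mice.

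The largest of these differences was that of Psma8, which in 5A3+/del mice was higher in CD150hi HSC, at 4.21 to 8.06, than in CD150neg MPP, at 3.51, 1.28, 2.33 and 3.31 in mice 1 to 4. In WT mice, 0 of 38 members were free of overlap in the 3 comparisons, beside 8.63%, 2.26% and 4.04% of all genes, and so were 0 of 38 in 5A3+/del mice for CD150lo HSC against CD150neg MPP (1.95%) and CD150hi HSC against CD150lo HSC (4.33%). The groups did not overlap for Psma8, as was the case for 3 of 38 members (Psma8, Psmb6 and Psmb8) and for 7.61% of all genes, and the log2 difference of 0.89 (SE 0.30) did not pass (limma, adjusted p = 0.0808). With the mouse as a block, since populations of the same mouse share a code in the labels, it was 0.93 and passed (limma, adjusted p = 0.0494), and it also passed without WT mouse 1 (limma, adjusted p = 0.0182). Psmb6 was lower in 5A3+/del CD150hi HSC, at 20.4, 24.3, 25.8, 23.0 and 28.2, than in 5A3+/del CD150neg MPP, at 36.1, 36.7, 29.2 and 29.1 (log2 difference -0.41, SE 0.15; limma, adjusted p = 0.107). In WT mice the members with the smallest p-values were Psmb1 in CD150hi HSC against CD150neg MPP (0.29, limma, adjusted p = 0.112) and Psmb5 in CD150hi HSC against CD150lo HSC (-0.42, limma, adjusted p = 0.267).

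For the genotype difference compared between populations, 0 of 38 members and 0% of all genes passed in each of the 3 comparisons with limma. At an unadjusted p under 0.05 there were 2, 1 and 2 members for CD150hi HSC against CD150neg MPP, CD150lo HSC against CD150neg MPP and CD150hi HSC against CD150lo HSC, beside 7.96%, 5.00% and 3.98% of all genes. They were Psmb1 and Psmd12, Psmb1 again, and Psma8 and Psmd2.

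Genes that act with the proteasome were followed as a list of 45 symbols, of which 42 were in the table and were tested. For the genotype difference, 0 of 42 passed in CD150hi HSC, CD150lo HSC and CD150neg MPP with limma, where 0.156%, 0.0324% and 0.0454% of all genes did, and 7, 3 and 0 had an unadjusted p under 0.05, beside 13.1%, 6.87% and 4.27% of all genes. The median of the list was -0.04, 0.06 and 0.00 on the log2 scale. In CD150hi HSC the 7 included the core assembly chaperones Psmg2 (-0.44), Psmg3 (-0.93) and Psmg4 (-0.76), the ubiquitin receptor Adrm1 (-0.44) and the small lid subunit Shfm1 (-0.34), whereas the shuttle factor Rad23b (0.44) had a positive difference. The adjusted p-values of these 6 genes from limma lay between 0.153 and 0.344. Without the CD150hi HSC library of 5A3+/del mouse 1, Psmg2, Psmg3 and Psmg4 differed by -0.36, -1.21 and -0.40, and Psmg4 was 5.96 in that library and between 15.1 and 27.8 in the other 5A3+/del libraries of CD150hi HSC. Nfe2l1 differed by 0.10, 0.07 and 0.06, the core maturation factor Pomp by 0.15, 0.21 and -0.19, and the activator subunits Psme1 and Psme2 by 0.04 and 0.25 in CD150hi HSC. Without the same library, Nfe2l1 differed by 0.04 and Pomp by 0.29 there. Psme2 was 62.2 in 5A3+/del CD150hi HSC mouse 2 and between 21.9 and 29.3 in the other mice of that group, beside 23.7 to 27.7 in WT.

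Between populations, 2 of the 42 passed in WT mice for CD150hi HSC against CD150neg MPP, both higher in CD150hi HSC, where 10.0% of all genes passed. Psmg2 differed by 0.65 (limma, adjusted p = 0.00863) and Ubqln2, a shuttle that brings ubiquitinated proteins to the proteasome, by 0.57 (limma, adjusted p = 0.00492). Ubqln2 was also higher in 5A3+/del CD150hi HSC than CD150neg MPP, by 0.52 (limma, adjusted p = 0.0229). Psmg2 no longer passed without WT mouse 1 or WT mouse 5 (limma, adjusted p = 0.0571 and 0.074), and Ubqln2 no longer passed in 5A3+/del mice without mouse 3, 4 or 5 (limma, adjusted p = 0.0995, 0.105 and 0.0783). With the mouse as a block, Pomp (-0.46, limma, adjusted p = 0.0309) and Psmg3 (0.86, limma, adjusted p = 0.0287) also passed in WT mice.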

How the data were processed

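RNA-Seq of 3 sorted populations was analyzed in 29 libraries from 5 WT and 5 5A3+/del mice. The authors deposited FPKM per gene (paired reads, mm9; the submitters' processing notes name Bowtie version 0.12.2 and HTSeq). These values are scaled to library size and exon length and were not quantile normalized. Groups came from genotype and cell type in the labels. Gene identifiers matched the annotation in 29279 of 30025 cases, 37 of 39 for the members. Fragments per library were recovered from steps of the low values, of which 98.4% to 98.9% were whole within 0.05 of a fragment. Amplified fragments are not independent molecules, so they describe the counting error alone.

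The 15409 genes that reached 1 FPKM in 4 or more libraries were put on the log2(FPKM + 1) scale (pseudocount 1), followed by quantile normalization. A model with 6 group means was fitted over all libraries in limma (version 3.58.1, R version 4.3.3). Tests were two-sided with Benjamini-Hochberg adjustment over all genes and a threshold of 0.05. Psmc2 was also tested by exact permutation over mice. Python version 3.11.15 and pandas version 2.3.3 made the tables. In simulated data for the CD150hi HSC comparison with 15409 genes, 151 of 200 genes changed by a log2 value of -1 were called (75.5%), with 7 unchanged genes. The changed genes were drawn only from genes above a minimum mean level, and the noise was normal and independent between libraries. The simulation held 200 changed genes, whereas 24 genes were called in the real comparison. Its share of calls therefore does not carry over to these data.

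The members, roles, pathway list and alternatives were chosen with earlier results of these data known. Genes named are the Psmc genes, Psmb5 to Psmb10, Psma8, Psmb11, Psmd10, the highest member, per comparison the members that passed or otherwise up to 3 with the smallest p, members without overlap, members outside the band from 80% to 125%, members that share a promoter motif, and pathway genes past a threshold together with Pomp, Psme1, Psme2, Nfe2l1, Adrm1 and Shfm1. Dnajc2, Napepld, Pmpcb and the genes named for a single flagged library were chosen after their values were seen.

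Populations of the same mouse share a code in the labels and are paired on that basis. Their residuals correlated with a median r of 0.079 over 28 pairs across genes (-0.042 to 0.235). WT and 5A3+/del libraries share only a replicate number (14 pairs, median r of 0.034). Alternatives covered the pseudocount, filter, scaling, design, age, blocks and each mouse left out.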

Additional observations from a re-analysis of the deposited data

Results flagged for a closer look

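Sets of 4 or 5 libraries (a gene in a group) were examined for only part of the tested members. These members were picked in part for their values in these data, so the count does not describe all members. In 7 of 138 sets, the library at one end was farther from its nearest neighbor than Dixon's test allows, and chance alone is expected to give 6.9. Psmc2 was 10.65 normalized FPKM in WT CD150hi HSC mouse 2, and the other WT mice lay between 6.404 and 7.418. Psma1 was 13.82 in 5A3+/del CD150hi HSC mouse 1, and the others lay between 29.36 and 35.18. Psma8 was 7.99 in WT CD150neg MPP mouse 1, and the others lay between 1.264 and 2.124. Psmb5 was 21.79 in 5A3+/del CD150neg MPP mouse 1 against 28.42 to 29.05, and Psmb8 was 24.95 in WT CD150lo HSC mouse 1 against 19.56 to 19.99. Psmc4 was 16.22 in WT CD150neg MPP mouse 5 against 20.04 to 20.75, and Psmd10 was 9.388 in 5A3+/del CD150lo HSC mouse 5 against 12.42 to 13.49. Without WT mouse 2, the Psmc2 difference in CD150hi HSC was -0.82 on the log2 scale (limma, adjusted p = 0.0831).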

How the results depend on the processing

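The difference of Psmc2 between genotypes was negative under all 21 alternatives in each population and passed the threshold in 15 of 21 in CD150hi HSC, 5 of 21 in CD150lo HSC and 0 of 21 in CD150neg MPP, with adjusted p-values from limma of 0.00872 to 0.39, 0.0126 to 0.228 and 0.691 to 1. In CD150hi HSC the call was lost in a fit of the 2 groups compared alone (-0.93, 0 members called) and without the CD150hi HSC library of 5A3+/del mouse 1 (-0.89, 0 members called), an alternative chosen after seeing the data. In CD150lo HSC Psmc2 passed with a filter of FPKM at least 5 (-0.91), with a trend in limma (-0.84) and with age as a covariate (-0.86), which makes 1 member called in each. Leaving out each mouse gave -1.04 to -0.77 in CD150hi HSC, -0.91 to -0.78 in CD150lo HSC and -0.64 to -0.44 in CD150neg MPP, and 0 to 1 members called in both HSC populations. Without WT mouse 5 or 5A3+/del mouse 2 Psmc2 passed in CD150lo HSC (limma, adjusted p = 0.0423 and 0.0348). The cause of these changes was not tested. The stricter filter left fewer genes, and the fits that leave some libraries out held fewer libraries.

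The replicate block by number across genotypes gave a Psmc2 difference of -0.93 (limma, adjusted p = 0.0288) in CD150hi HSC and 1 member called. The labels give no pairing of mice by these numbers. Of their 14 correlations, 0 were over 0.1, beside 10 of 28 for populations of the same mouse. Most pairs from the same mouse thus miss this cut as well, so it cannot decide on pairing. With the mouse as a random block the adjusted p from limma was 0.0199. The mouse block gave 1 called member, Psma8, for CD150hi HSC against CD150neg MPP in 5A3+/del mice, as did leaving out WT mouse 1 (0 to 1 over the mice), and changed no other call of a member. Depth limited Psmb11, with 0 to 10 fragments per library. Of 13047 values for single members and pathway genes under the alternatives, 12416 kept their sign and their side of the threshold, 602 changed sign without passing it, 17 lost a call and 12 gained one.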
